A study of Arabidopsis thaliana with 12 samples.

Results

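Leaves of the Arabidopsis thaliana mutant cs26 and of wild type, both grown in short days, were compared across the genome. The comparison took every array whose labels give short days, 3 of cs26 and 3 of wild type, which are 6 of the 12 arrays of the series. Wild type was accession Col-0 and cs26 was the SALK_034133 line, a single mutant line. All short-day plants grew in soil with Hoagland medium under 8 h of white light at 20 °C and 16 h of dark at 18 °C, and leaves were harvested at 5 weeks. The other 6 arrays held both genotypes in long days, with 16 h of light and 8 h of dark, harvested at 3 weeks, so photoperiod and age cannot be told apart. The submitters call the 3 arrays of a group biological replicates. The design sets the mutant against wild type separately within each day length, to sort the genes that respond to loss of CS26.

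CS26 encodes a chloroplast enzyme that makes S-sulfocysteine, a relative of the enzymes that make cysteine. The chloroplast houses photosynthesis and carries a small genome of its own, and its proteins come from both that genome and the nucleus. Nuclear factors process the plastid transcripts and assemble the photosystems. Chloroplasts are also a source of reactive oxygen in the light and the site where synthesis of the defence hormones salicylate and jasmonate begins. Autophagy is the machinery by which leaf cells recycle their own contents, including parts of chloroplasts.

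Each Affymetrix ATH1 probe set gave 1 value per array, on a log2 scale, so a difference of 1 is a doubling. Of 22746 probe sets tested, 3806 (16.7%) were called at a limma adjusted p under 0.05, 2022 higher (8.89%) and 1784 lower (7.84%) in cs26. The balance turned without replicate 1 of wild type (1271 higher and 1362 lower) and without replicate 3 of cs26 (1448 and 1481). The groups did not overlap in 29.8% of probe sets. Most calls were small, with 1978 under 1.5-fold and 473 at 2-fold or more, of which 150 were higher and 323 lower. Calls were unevenly spread over brightness, from 1.32% of the 5699 dimmest probe sets to 31.8% of the 5686 brightest. Per gene, using the brightest probe set of each of 13356 genes, 14.8% were called, 7.82% higher and 6.98% lower. These last figures are the background for every gene list and are not matched to a list for brightness. The groups did not overlap in 28.3% of genes.

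CS26 itself (AT3G03630) has no probe set naming it alone in the annotation used, so the genotype labels were not checked by its level. Replicate 2 of cs26 spread most around its group mean, with an SD over probe sets of 0.208 against 0.117 to 0.155 on the other short-day arrays. Among the 24 largest rises it was the highest of the 3 cs26 arrays in 13, and among the 24 largest falls the lowest in 19. Without it 23 of these rises and all 24 falls were still called. The 3′ minus 5′ signal of the actin control, a measure of RNA integrity, was 3.24 to 3.74 in wild type and 3.72 to 3.99 in cs26. Mesophyll markers (RCA and PRK, 1 of 2 called) averaged 12.24 to 12.82 in wild type and 12.8 to 13.36 in cs26, and the root markers (PYK10, EXPA7 and EXPA18, 0 of 3 called) lay between 4.28 and 4.40 throughout. Phloem markers (0 of 3 called) averaged 5.95 to 6.11 in wild type and 6.13 to 6.26 in cs26. The epidermal pair FDH and TRY (1 of 2 called, higher) averaged 7.88 to 8.36 and 8.58 to 8.84. Of 9 markers of dividing cells 1 was called higher, and of 4 flower and bolting markers 1 was called lower. The guard cell (0 of 4) and xylem (0 of 1) markers were not called. In whole leaves, fewer cells of a type and less RNA per cell cannot be told apart, and the part of tissue makeup in the results was not tested.

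The largest rises in cs26 were plastid transcripts, a pair of defensins and the gene beside CS26, all read as array signal. Whether signal follows transcript amount for the plastid genes was not tested. The plastid gene rbcL, for the large subunit of the carbon-fixing enzyme Rubisco, read 7.26, 7.65 and 7.60 on the wild-type arrays and 12.79, 14.09 and 13.24 on the cs26 arrays. Every cs26 array stood more than 5 log2 units above every wild-type array. The rise of 5.87 ± 0.42 (log2 difference, SE, n = 3 arrays a group) was 58.5-fold (adjusted p = 1.7e-06), and the cs26 value of 14.09 lay near the array maxima, where the scale ends.

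**Figure D1:**
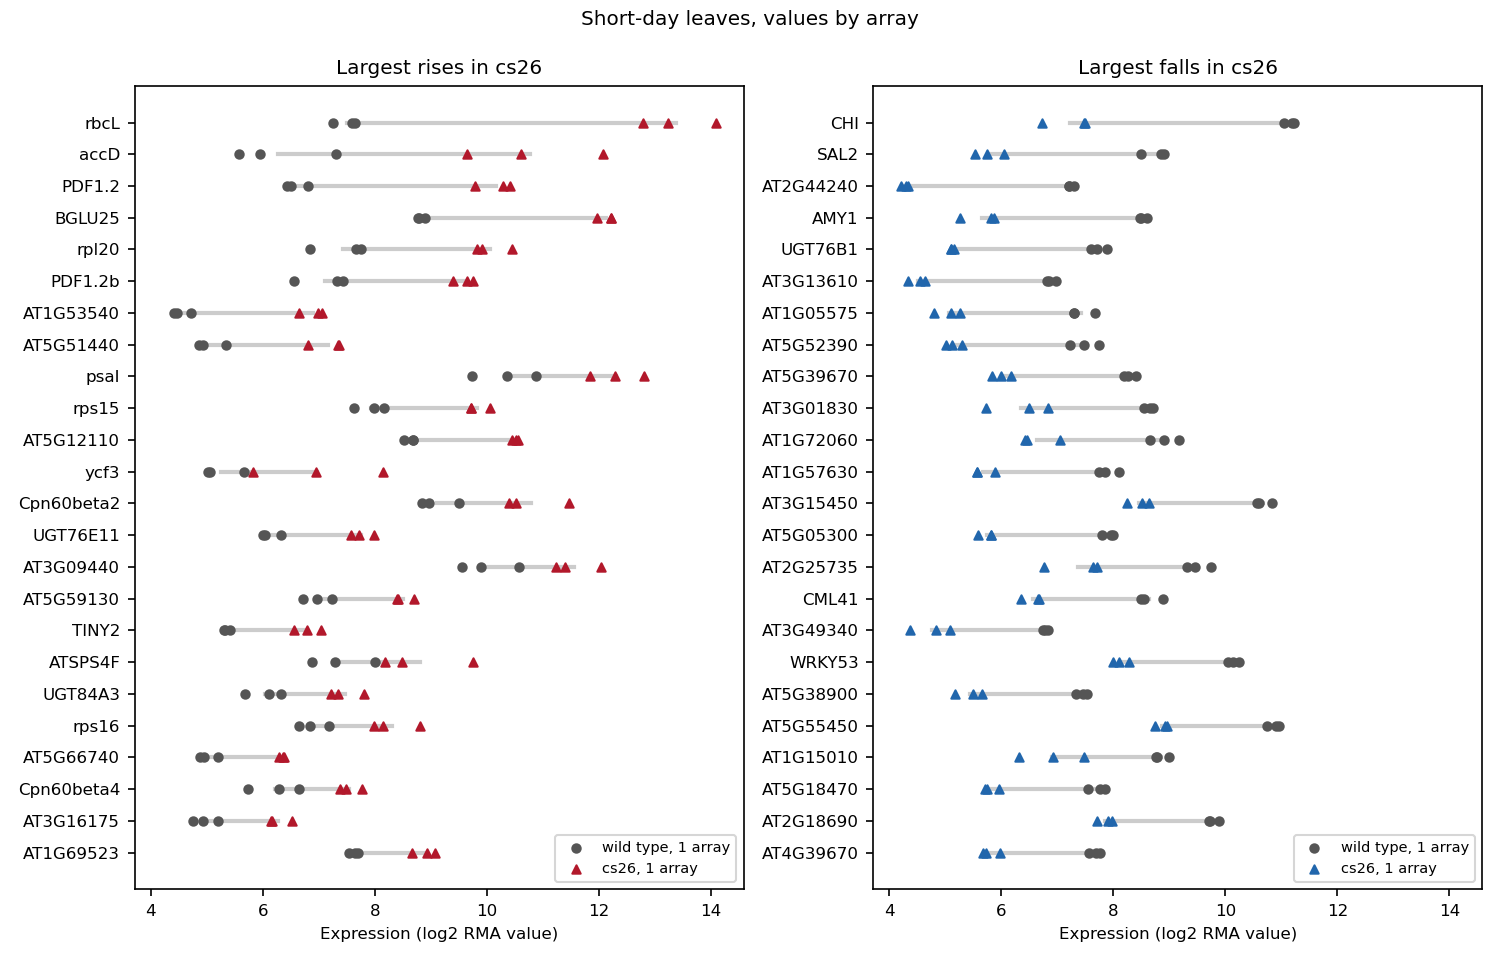
Log2 RMA expression value on each short-day array (x axis) for the 24 largest rises and 24 largest falls in cs26 (rows). Grey circles are wild-type arrays, coloured triangles are cs26 arrays, and the grey line joins the group means. In all of these genes the groups do not overlap, as the naming rule requires.

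PDF1.2, a secreted defensin that responds to jasmonate and ethylene, read 6.80, 6.43 and 6.50 in wild type and 10.29, 9.78 and 10.41 in cs26. The gene was near 6.5 on all wild-type arrays and near 10 on all cs26 arrays, a rise of 3.58 ± 0.15 (adjusted p = 2.53e-08). PDF1.2b rose by 2.49 ± 0.20, on a probe set that can also bind related transcripts. These were the only rises among 15 measured genes of the defensin list (13.3%, against 7.82% higher among all genes). That list also holds the thionin genes THI2.1 and THI2.2. LCR68 was lower (-0.36 ± 0.10, adjusted p = 0.0265), a call lost when wild-type replicate 1 or 2 or cs26 replicate 2 was left out (adjusted p up to 0.146 over the alternatives). The median difference of the list was -0.10, beside 0.00 for all genes.

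BGLU25, of the beta-glucosidase family, lies next to CS26 on chromosome 3. It read 8.78, 8.90 and 8.77 in wild type and 12.22, 11.97 and 12.22 in cs26. The arrays of each genotype agree closely and the rise of 3.32 ± 0.17 was 9.99-fold (adjusted p = 8.63e-08). Of the 20 genes within 10 places of CS26, 9 had a probe set of their own, and BGLU25 was the 1 called. The other 8 differed by -0.39 to 0.17.

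Among the remaining rises, the nuclear genes Cpn60beta2 and Cpn60beta4 encode subunits of the plastid chaperonin, the folding machine on which Rubisco depends. Cpn60beta2 read 8.84, 8.97 and 9.50 in wild type and 10.40, 11.47 and 10.52 in cs26, a rise of 1.69 ± 0.24 (adjusted p = 3.82e-04). Replicate 2 of cs26 was the highest array. Cpn60beta4 rose by 1.32 ± 0.18. TINY2, a transcription factor of the AP2 family, read 5.30 to 5.42 in wild type and 6.55 to 7.04 in cs26, and rose by 1.44 ± 0.14. ATSPS4F, a sucrose phosphate synthase, rose by 1.42 ± 0.39 (adjusted p = 0.0239). Leaving out wild-type replicate 1 or 2, or cs26 replicate 2, ended that call, and without the last the difference was 0.95. Of 24 named rises 8 are known here by locus only, led by AT1G53540 (2.37), AT5G51440 (2.12) and AT5G12110 (1.88).

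AT5G12110 shows how tight some of these differences were. Its wild-type arrays read 8.68, 8.68 and 8.52 and its cs26 arrays 10.52, 10.45 and 10.56. The SD within a group was 0.092 and 0.056, against a rise of 1.88 ± 0.08. AT1G53540 went from 4.46, 4.71 and 4.41, near the bottom of the scale, to 6.99, 6.64 and 7.05.

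The largest falls in cs26 with a known name included genes of defence. CHI, a chitinase that acts on fungal cell walls, read 11.19, 11.05 and 11.23 in wild type and 7.49, 6.72 and 7.47 in cs26. Wild type held CHI among its bright probe sets and every cs26 array was far below, a fall of 15.2-fold (-3.93 ± 0.17, adjusted p = 2.55e-08). AMY1, an alpha-amylase, read 8.60, 8.47 and 8.50 in wild type and 5.81, 5.27 and 5.87 in cs26. It fell by 2.87 ± 0.14, or 7.33-fold.

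UGT76B1, which attaches glucose to salicylate and other immune signals, read 7.71, 7.88 and 7.61 in wild type and 5.16, 5.11 and 5.10 in cs26. The 3 cs26 arrays lay within 0.06 of each other and the fall was 2.61 ± 0.15 (6.11-fold). AT3G13610, annotated as F6'H1, an enzyme of coumarin synthesis, fell by 2.38 ± 0.11. SAL2, a relative of the phosphatase SAL1, went from 8.49, 8.91 and 8.85 to 5.75, 5.53 and 6.04, a fall of 2.98 ± 0.16. The other named falls with a symbol were CML41 and WRKY53, given with their families below, and 18 of the 24 are known here by locus, from AT2G44240 (-2.95) to AT4G39670 (-1.89).

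All 24 of these falls were called under every alternative tried, as were 21 of the 24 rises. The exceptions were ycf3, ATSPS4F and AT3G09440.

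Of 69 genes on the plastid chromosome, 14 were higher and 6 lower in cs26, 29.0% in all against 14.7% of nuclear genes. Their spread between replicates was larger too: the median residual SD was 0.394, and 0.134 for the other genes. Without replicate 2 of cs26 the plastid count was 10 higher and 12 lower and the median difference fell from 0.21 to 0.03. With wild-type replicate 1 or cs26 replicate 3 left out, the count was 9 higher and 6 lower. In many plastid genes, such as psbA, psbN and psbB, though not in all, replicate 2 was the highest array of both genotypes. Leaving out only the cs26 one therefore lowers the differences of such genes.

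The rise was steepest at one end of a run of neighbours. From rbcL (5.87) the differences stepped down along the chromosome through accD (4.50 ± 0.52), for a subunit of the enzyme that starts fatty acid synthesis, and psaI (1.98 ± 0.26), for a small photosystem I protein. Next were ycf4 (1.03 ± 0.40, adjusted p = 0.104), a photosystem I assembly factor, cemA (0.95 ± 0.25), of the chloroplast envelope, and petA (0.74 ± 0.13), for cytochrome f. All but ycf4 were called, and the cemA call ended when replicate 3 of either genotype, wild-type replicate 1 or cs26 replicate 2 was left out (adjusted p up to 0.0864 over the alternatives). The accD values were 5.58, 7.30 and 5.95 in wild type and 9.64, 12.08 and 10.61 in cs26, so the arrays of a group differed by more than 1 unit. That its groups do not overlap is required by the rule that named it.

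Just after petA the direction turned. All 4 genes of the psbE operon, for small subunits of photosystem II, were lower: psbJ (-0.76 ± 0.10), psbL (-0.61 ± 0.12), psbF (-0.94 ± 0.10) and psbE (-1.16 ± 0.11). The last read 10.81, 11.07 and 11.07 in wild type and 9.81, 9.76 and 9.90 in cs26, without overlap. PsbE and PsbF form cytochrome b559. The adjacent petL, named after its value was seen, rose by 1.19 ± 0.21.

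**Figure D2:**
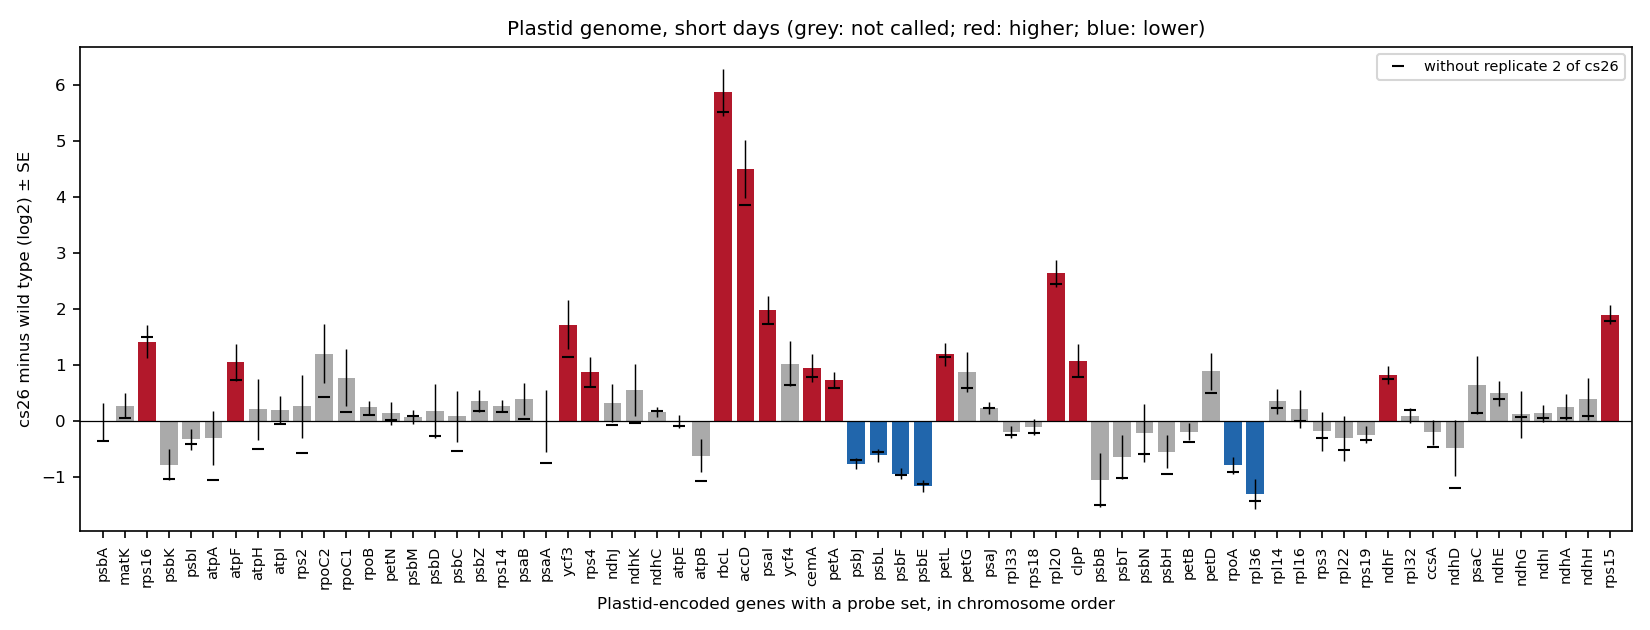
Difference between cs26 and wild type in short days (log2, bars, ± SE) for plastid genes with a probe set, in chromosome order. Red bars were called higher, blue bars lower and grey bars were not called, and short black lines mark the value without replicate 2 of cs26. Bars descend from rbcL (5.87) to petA (0.74) and the 4 genes of the psbE operon lie below 0.

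Elsewhere on the plastid chromosome, ribosomal protein genes went both ways, with 4 higher, 1 lower and 10 not called of 15 measured. The rises were rpl20 (2.64 ± 0.24), rps15 (1.90 ± 0.16), rps16 (1.42 ± 0.29) and rps4 (0.88 ± 0.27). The rps4 groups met at 11.75, and its call ended when replicate 3 of either genotype, wild-type replicate 1 or cs26 replicate 2 was left out (adjusted p up to 0.169 over the alternatives). For rps15 the wild-type arrays read 7.63, 8.17 and 7.98 and the cs26 arrays 9.71, 10.06 and 9.71. The fall was rpl36 (-1.30 ± 0.27, adjusted p = 0.00515), the lowest value of the 69 plastid genes, from 10.29, 10.49 and 10.90 to 8.89, 9.51 and 9.38 without overlap. Near it, rpoA, for a subunit of the plastid RNA polymerase, fell by 0.79 ± 0.15. The uncalled ribosomal protein genes measured -0.31 (rpl22) to 0.35 (rpl14), and 5 of them lay below 0. The genes rps4, rpl36, rpoA, rpl22 and rpl14 were chosen after their values were seen. The ycf3 gene, for a photosystem I assembly factor, rose by 1.72 ± 0.44, from 5.02, 5.06 and 5.67 to 5.82, 8.15 and 6.95. Its cs26 arrays spanned more than 2 units, and the call ended when wild-type replicate 1 or 2 or cs26 replicate 3 was left out (adjusted p up to 0.0956 over the alternatives). The 6 measured genes of the psbB operon had a median of -0.38. Without replicate 2 of cs26 it was -0.77, and 2 of them were then called lower. Wild-type replicate 2, which stayed in, was also the highest of its group for these genes.

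Several nuclear genes for building the thylakoid membranes rose in cs26. Of 11 measured genes for assembly and quality control, 7 rose and 0 fell (63.6%, against 7.82% higher among all genes), with a median difference of 0.53. The other 4, AT4G01150, AT1G52220, LPA2 and LIL3:2, measured 0.08 to 0.27. Without replicate 2 of cs26, 6 rose. SPPA, a thylakoid protease, read 7.67, 7.83 and 8.24 in wild type and 8.70, 9.10 and 8.62 in cs26, a rise of 0.89 ± 0.16.

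LIL3:1, which holds enzymes of chlorophyll synthesis at the membrane, rose by 0.66 ± 0.10, from 10.51 to 10.69 on wild-type arrays to 11.15 to 11.40 on cs26 arrays. AT4G38100, annotated as CURT1D of the family that bends grana margins, rose by 0.69 ± 0.11. HCF101, an iron-sulfur scaffold needed for photosystem I, rose by 0.59 ± 0.13. It was moved out of the list of plastid transcript factors by function after values were seen. The photosystem II assembly factors LPA1 (0.54 ± 0.14), LPA19 (0.53 ± 0.12) and PAM68 (0.45 ± 0.12) completed the group. The LPA1 call ended when wild-type replicate 1 or 2 or cs26 replicate 2 was left out (adjusted p up to 0.174), and that of PAM68 when wild-type replicate 2 or 3 or cs26 replicate 1 or 3 was (up to 0.0807).

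Of 10 factors that edit or process plastid transcripts, 2 rose and 0 fell (20.0% higher, against 7.82% among all genes), with a median of 0.20. CRR21, an editing factor for an NDH transcript, read 6.93, 7.22 and 7.11 in wild type and 8.36, 8.06 and 8.17 in cs26. It rose by 1.11 ± 0.13 (2.16-fold, adjusted p = 8.89e-05). LPA66, which edits the psbF transcript, rose by 0.40 ± 0.09. The OTP factors, 6 genes from OTP70 to OTP86, measured -0.07 to 0.43 and were not called.

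Among electron carriers and ATP synthase genes encoded in the nucleus, CYTC6A, for cytochrome c6A of the thylakoid lumen, rose by 0.94 ± 0.14, the 1 call among 4. In the Calvin cycle PRK, phosphoribulokinase, rose by 0.64 ± 0.16, a call that ended when wild-type replicate 1 or 2 was left out (adjusted p up to 0.168 over the alternatives). RCA, which activates Rubisco, measured 0.40 ± 0.17 and SBPASE 0.20 ± 0.09, neither called. Of 14 tetrapyrrole genes 3 rose (21.4%, against 7.82% higher among all genes), and 1 rose when wild-type replicate 2 was left out. The 3 were LIL3:1, HEME2 (0.46 ± 0.12) and GSA1 (0.37 ± 0.10), the latter pair enzymes on the way to chlorophyll. HEME2 also lost its call without cs26 replicate 1 or 3 (adjusted p up to 0.0865), and GSA1 without wild-type replicate 1 or cs26 replicate 2 (up to 0.18). PRK and RCA are also the mesophyll markers given above, whose means overlapped between the genotypes, and the part of mesophyll RNA in these rises was not tested.

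Of 9 measured enzymes that remove peroxide or recycle ascorbate and glutathione, 5 rose by small amounts and 1 fell (median 0.39). GR, the glutathione reductase of plastids and mitochondria, read 9.96, 9.59 and 9.93 in wild type and 10.20, 10.62 and 10.34 in cs26, a rise of 0.56 ± 0.12 without overlap. GLDH, the last step of ascorbate synthesis (0.51 ± 0.14), SAPX (0.45 ± 0.13) and TAPX (0.42 ± 0.12), the stromal and thylakoid ascorbate peroxidases, and GR1, the cytosolic glutathione reductase (0.39 ± 0.12), were the others. ATMDAR2, a monodehydroascorbate reductase, fell by 0.57 ± 0.15, and PRXIIF (-0.31), VTC4 (0.10) and PRXR1 (0.17) were not called. These calls lay near the threshold. With any wild-type array left out 2 rose, with cs26 replicate 1 or 2 left out 3 rose, and with cs26 replicate 3 left out 2 rose.

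Of 11 thioredoxins and glutaredoxins, the plastid thioredoxin THX (0.41 ± 0.10) and the plastid thioredoxin reductase NTRC (0.40 ± 0.12) rose and 2 glutaredoxins fell. GRX480, which salicylate induces, was the larger fall and read 8.31, 8.29 and 8.61 in wild type and 6.88, 6.61 and 7.0 in cs26 (-1.57 ± 0.13, adjusted p = 6.12e-06). GRXC1 fell by 0.73 ± 0.16. The NTRC call ended when any array but wild-type replicate 2 was left out (adjusted p up to 0.208 over the alternatives).

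Of 13 listed heat shock proteins, chaperones and co-chaperones, 6 rose and 2 fell, with a median of 0.48. Genes of this kind that the list does not name, which can include loci among the largest rises, are not counted. Beside both chaperonin subunits, AT5G48570, annotated as ROF2, a heat-induced partner of HSP90, rose by 1.17 ± 0.25. Hop2 (0.94 ± 0.21) and Hop3 (0.56 ± 0.11), which link HSP70 to HSP90, rose as well. Hop2 read 7.19, 7.43 and 7.66 in wild type and 7.93, 8.86 and 8.30 in cs26, with the lowest cs26 array just above the highest wild-type array. Hsp70-2, a cytosolic HSP70, fell by 0.58 ± 0.15, a call that ended without replicate 1 of either genotype. Without replicate 1 of cs26 the count was 7 higher and 0 lower, and without any other array 1 was lower.

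Several genes of calcium signalling and defence transcription fell in cs26. All 8 listed calmodulin-like genes, whose products sense calcium, had differences below 0. Of these 8, 4 fell (against 6.98% lower among all genes), with a median of -0.49. Family members that the list does not name are not counted. CML41, which acts at the channels between cells during immune responses, read 8.88, 8.49 and 8.54 in wild type and 6.65, 6.35 and 6.68 in cs26, a fall of 2.08 ± 0.15 (4.22-fold). CML37 fell by 1.61 ± 0.18 and CML38 by 1.4 ± 0.20. For CML38 the wild-type arrays read 9.05, 9.07 and 8.89 and the cs26 arrays 7.97, 7.03 and 7.82, with replicate 2 of cs26 lowest. CML23 fell by 0.61 ± 0.18, a call that ended when replicate 2 of either genotype or cs26 replicate 3 was left out (adjusted p up to 0.253 over the alternatives). CML42, CML43, CML30 and AT1G76640 measured -0.37 to -0.05 and were not called.

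WRKY transcription factors fell in 4 of 7 listed cases and rose in 0. WRKY53, a regulator of leaf senescence and defence, read 10.05, 10.25 and 10.14 in wild type and 8.11, 7.99 and 8.28 in cs26, close to 2 units lower on every array (-2.02 ± 0.12, adjusted p = 5.33e-07). WRKY22, of the immune MAP kinase pathway, fell by 0.81 ± 0.14, WRKY47 by 0.58 ± 0.15 and WRKY6, of senescence and defence, by 0.32 ± 0.09. The WRKY47 call was lost without replicate 3 of either genotype, and that of WRKY6 without replicate 1 or 2 of either. WRKY42 (-0.11), WRKY20 (0.33) and ZAP1 (0.33) were not called. The 3 WRKY genes of the senescence list were also its 3 falls among 8 genes, while SAG101 (-0.54), PPDK (-0.06), YLS5 (-0.05), SAG29 (0.05) and NAC014 (0.06) were not called.

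In the salicylate list of 7 genes, 3 fell and 1 rose (median -0.54). The falls were UGT76B1, GRX480 and BSMT1 (-0.66 ± 0.14), which methylates salicylate. SAG101, a partner of the immune regulator EDS1, measured -0.54 ± 0.20 (adjusted p = 0.0885). SGT1A, an immune co-chaperone, rose by 0.47 ± 0.14, a call that ended when wild-type replicate 1 or 2 or cs26 replicate 2 was left out. Of 4 chitinase and pathogenesis-related genes, OSM34, an osmotin-like protein, fell beside CHI, by 0.41 ± 0.12 near the bottom of the scale. The OSM34 call ended when wild-type replicate 1 or 2 or any cs26 array was left out (adjusted p up to 0.152). ChiC (-0.13) and PR-1-LIKE (0.01) were not called.

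**Figure D3:**
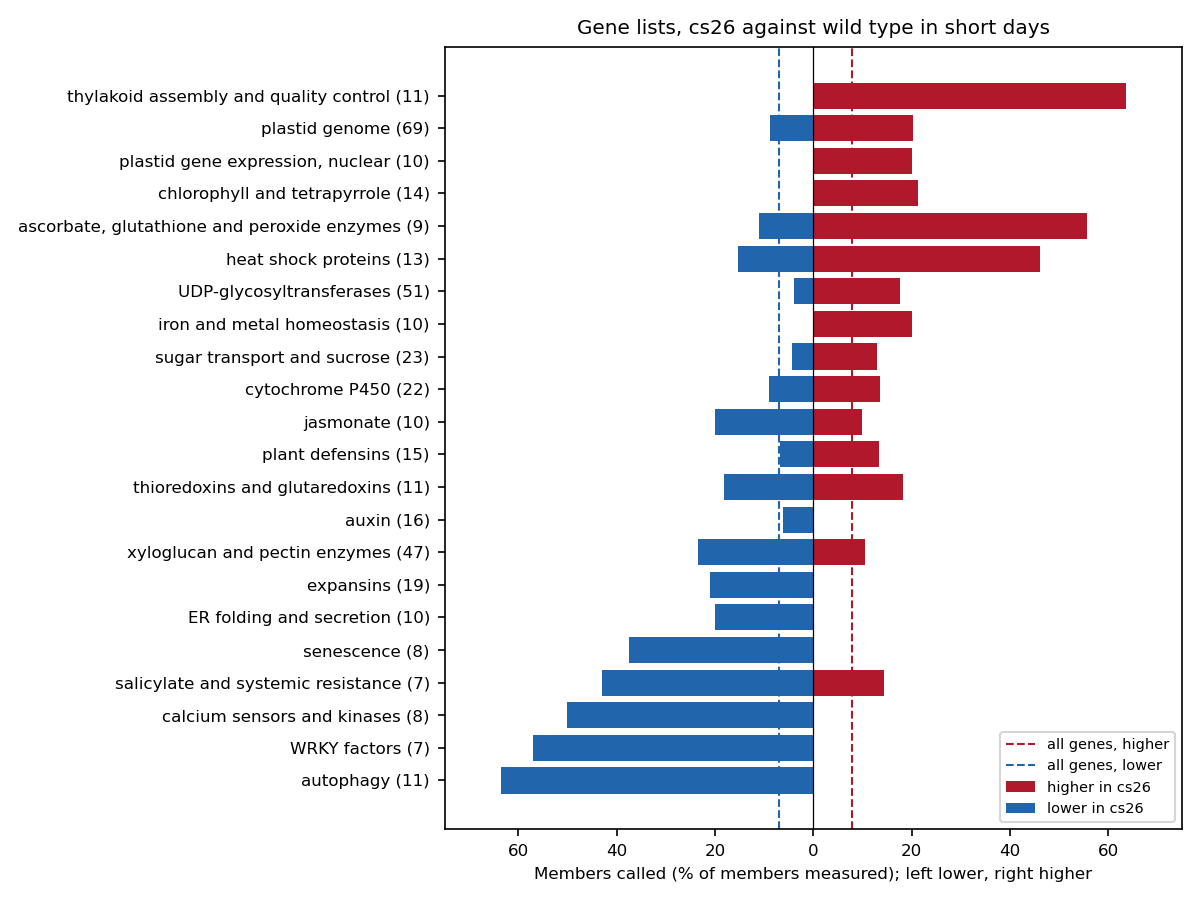
Share of measured members called higher (red, right) or lower (blue, left) in cs26 in short days, for 22 gene lists with the number of measured members in brackets. Dashed lines mark the shares among all 13356 genes, 7.82% higher and 6.98% lower. Thylakoid assembly has 63.6% higher and autophagy, a list made up mostly of ATG8 genes, 63.6% lower.

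Of 5 receptor-like kinases and their partners 2 fell, THE1, a sensor of the cell wall (-0.72 ± 0.11), and BIK1, a kinase that relays signals from immune receptors (-0.60 ± 0.13). Of 10 genes of protein folding and traffic in the endoplasmic reticulum, 2 fell and 0 rose (20.0% lower, against 6.98% among all genes). ATERDJ3B, a co-chaperone there, read 10.07, 10.39 and 10.21 in wild type and 9.27, 8.95 and 9.24 in cs26 (-1.07 ± 0.12). The stress factor BZIP60, which switches on the folding response of that compartment, fell by 0.65 ± 0.10, from 9.69 to 9.98 on the wild-type arrays to 9.16 to 9.23 on the cs26 arrays.

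In the jasmonate list of 10 genes, JMT, which methylates jasmonate, rose by 0.83 ± 0.09 while JAL23 (-0.95 ± 0.11) and JAL34 (-0.85 ± 0.13), jacalin-related lectins that are no part of jasmonate synthesis, fell. The transcription factors MYC3 (-0.06) and MYC4 (0.48) were not called, nor were ORA47 (-0.29) and the synthesis genes OPCL1 (-0.02) and DGL (-0.06). JMT stayed dim, at 4.47 to 4.57 in wild type and 5.24 to 5.46 in cs26.

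Several autophagy genes fell in cs26. All 11 listed genes had differences below 0, 7 fell and 0 rose (63.6%, against 6.98% lower among all genes), and the median was -0.45. The 7 calls were all of the ATG8 family, small ubiquitin-like proteins that are attached to the membrane of the forming autophagosome. This family makes up most of the list, so the counts describe ATG8 genes and say little about the rest of the machinery. ATG8E read 8.94, 8.92 and 8.58 in wild type and 7.93, 7.09 and 7.85 in cs26, a fall of 1.19 ± 0.19 (2.28-fold, adjusted p = 0.00107). APG8A read 9.01, 8.63 and 8.57 in wild type and 8.04, 7.18 and 8.06 in cs26, a fall of 0.98 ± 0.21. In both genes the groups did not overlap and replicate 2 of cs26 was lowest.

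The other 5 calls were ATG8D (-0.58), ATG8G (-0.58), ATG8C (-0.47), ATG8F (-0.45) and APG8H (-0.44). ATG8B (-0.35), ATG8H (-0.30), AT5G66930 (-0.32) and ATG3 (-0.28), the enzyme that conjugates ATG8 to lipid, were not called. Without replicate 2 of cs26, 4 fell and the median was -0.32. With wild-type replicate 1 left out 4 fell, and with wild-type replicate 2 left out 3 fell. The ATG8D difference was -0.33 without cs26 replicate 2.

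**Figure D4:**
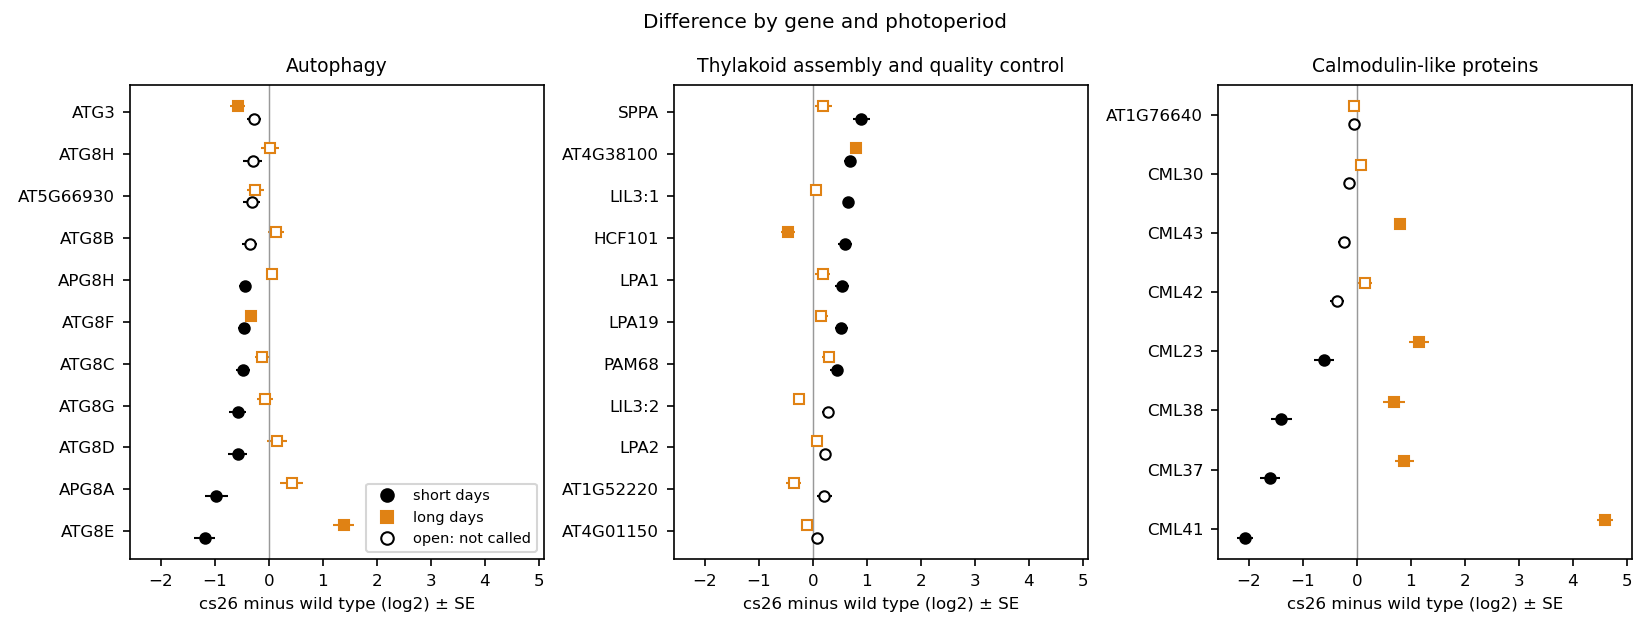
Difference between cs26 and wild type (log2 ± SE) for each listed autophagy, thylakoid assembly and calmodulin-like gene, in short days (black circles) and long days (orange squares). Filled symbols were called and open ones were not. In short days every listed autophagy and calmodulin-like gene lies below 0 and every listed assembly gene above 0.

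Of 51 UDP-glycosyltransferases, which attach sugars to small molecules, 9 rose and 2 fell (17.6% and 3.92%, median 0.07). UGT76E11 read 6.04, 6.32 and 6.01 in wild type and 7.72, 7.98 and 7.58 in cs26, a rise of 1.64 ± 0.13 (3.11-fold, adjusted p = 3.86e-06). UGT84A3, which acts on hydroxycinnamic acids, rose by 1.42 ± 0.17, and UGT74D1, which acts on auxins, by 0.79 ± 0.11. The flavonol enzyme UGT78D1 rose by 0.77 ± 0.09. Falls were seen for UGT76B1 and UGT73D1 (-1.34 ± 0.13).

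In phenylpropanoid metabolism 3 of 10 genes rose and 1 fell. CHIL, related to chalcone isomerase of the flavonoid pathway, read 7.89, 7.62 and 7.88 in wild type and 8.91, 9.10 and 9.06 in cs26 (1.23 ± 0.14). The flavonoid glycosyltransferases UGT78D1 and UGT78D2 (0.54 ± 0.12) were the other rises. CCOAMT, a caffeoyl-CoA methyltransferase, fell by 1.05 ± 0.15. Late anthocyanin genes were dim and not called, with DFR at -0.09 and UF3GT at -0.09. Cytochrome P450 genes were called in 5 of 22 cases (22.7%, against 14.8% of all genes), all of the CYP71B family. CYP71B23 (-1.49 ± 0.19) and CYP71B24 (-0.89 ± 0.17) fell, and CYP71B26 (0.84 ± 0.18), CYP71B35 (0.69 ± 0.12) and CYP71B5 (0.54 ± 0.11) rose.

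For carbohydrates, AMY1 was the 1 fall and SBE2.2 (0.61 ± 0.16), a starch branching enzyme, and DPE1 (0.57 ± 0.14), of starch breakdown, the 2 rises among 7 starch genes. The DPE1 call ended when wild-type replicate 1 was left out, and that of SBE2.2 when wild-type replicate 1 or 2 or cs26 replicate 2 or 3 was. Of 23 sugar transport and sucrose genes 3 rose and 1 fell (17.4% called, near the 14.8% of all genes). TMT2, a sugar importer of the vacuole, read 6.97, 6.71 and 7.02 in wild type and 7.75, 7.82 and 7.68 in cs26 (0.85 ± 0.09), and the sucrose exporter SWEET13 rose by 0.85 ± 0.13 beside ATSPS4F. cwINV6, a relative of cell wall invertases, fell from 6.52, 6.13 and 6.58 to 4.72, 4.62 and 4.82 (-1.69 ± 0.12).

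Few genes of sulfur metabolism, to which CS26 belongs, were measured. Of 4 measured genes of sulfate assimilation and cysteine synthesis, OASA2, related to the cysteine synthases, was called (-0.31 ± 0.09), and the call ended when any wild-type array or cs26 replicate 3 was left out (adjusted p up to 0.163). The ATP sulfurylases APS3 (-0.29 ± 0.10) and APS4 (-0.16 ± 0.10) and the sulfite reductase SIR (0.36 ± 0.14) were not called, but without replicate 3 of wild type 1 gene was called higher and 0 lower. Of 5 glucosinolate genes, BCAT4, which starts the lengthening of methionine, fell by 0.44 ± 0.09 and GSTU20 by 0.38 ± 0.12, and 1 fell when wild-type replicate 1 or 3 or any cs26 array was left out. Many genes of these pathways have no probe set naming them alone here.

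Of 6 cold and drought genes, COR15B (0.98 ± 0.10) and COR15A (0.80 ± 0.19), which protect chloroplast membranes in the cold, rose and the dehydrin LTI30 fell by 0.78 ± 0.18. COR15B read 8.56, 8.74 and 8.43 in wild type and 9.57, 9.42 and 9.67 in cs26. The COR15A call was lost without replicate 2 of wild type (adjusted p up to 0.0549). Of 10 metal genes 2 rose (20.0%, against 7.82% higher among all genes), and 1 of the 2 was called without replicate 3 of cs26. They were PYE (0.67 ± 0.12) and BHLH101 (0.75 ± 0.19), transcription factors of the iron deficiency response.

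Cell wall genes were called in both directions. Of 19 expansins and expansin-like genes, whose products loosen walls, 4 fell and 0 rose (21.1% lower, median 0.01). EXLA1 read 8.86, 8.91 and 8.53 in wild type and 7.61, 7.29 and 7.48 in cs26 (-1.31 ± 0.14), EXLB1 fell by 1.36 ± 0.19, EXPA8 by 0.74 ± 0.11 and EXLA2 by 0.50 ± 0.12. The EXLA2 call ended when wild-type replicate 2 or cs26 replicate 3 was left out (adjusted p up to 0.0787). Of 47 genes for xyloglucan and pectin enzymes and wall acetylation, 11 fell and 5 rose (23.4% and 10.6%). The pectin methylesterase genes ATPMEPCRB (-1.04 ± 0.13) and PME61 (-0.65 ± 0.09) fell, and TBL26, of a family that acetylates wall polymers, rose by 0.71 ± 0.08. The count was 8 lower and 2 higher with cs26 replicate 3 left out, 9 lower and 3 higher with wild-type replicate 3 left out, and 7 lower and 4 higher with wild-type replicate 1 left out.

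The short-day differences were often unlike those of the long-day comparison, which shares no array with them. The test of the difference of effects called 6268 probe sets (27.6%) and 24.4% of genes, and in long days 24.6% of probe sets were called, and 11.6% of genes were higher and 10.3% lower in cs26. All 24 of the largest short-day falls had a different effect in long days, and all 24 were called higher there. The short-day difference that chose these genes enters the test of the difference of effects. Counts of that test among the named falls and rises are therefore a description. For CHI the difference was -3.93 in short days and 4.22 in long days (adjusted p of the difference = 1.74e-10). Its mean was 11.16 in short-day and 6.15 in long-day wild type, and 7.23 and 10.37 in cs26.

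The same held for most of these falls. In 23 of 24 the wild-type mean was higher in short than in long days, and in 21 the short-day cs26 mean lay between both wild-type means. WRKY53 averaged 10.15 in short-day and 7.15 in long-day wild type, and 8.13 in short-day cs26. Genes chosen for a fall tend to be high in the short-day wild type, so these counts are a description.

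The rises were mixed. Of 24, 9 were also called higher in long days, 7 were called lower there and 8 were not called, and the effect differed for 17. UGT76E11 rose by 1.64 in short days and fell by 1.46 in long days, and TINY2 rose by 1.44 and fell by 0.92. BGLU25 (3.32 and 3.82) and accD (4.50 and 2.72) rose in both, with no called difference of effects. Of the plastid genes 12 were called in the same direction in both photoperiods.

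**Figure D5:**
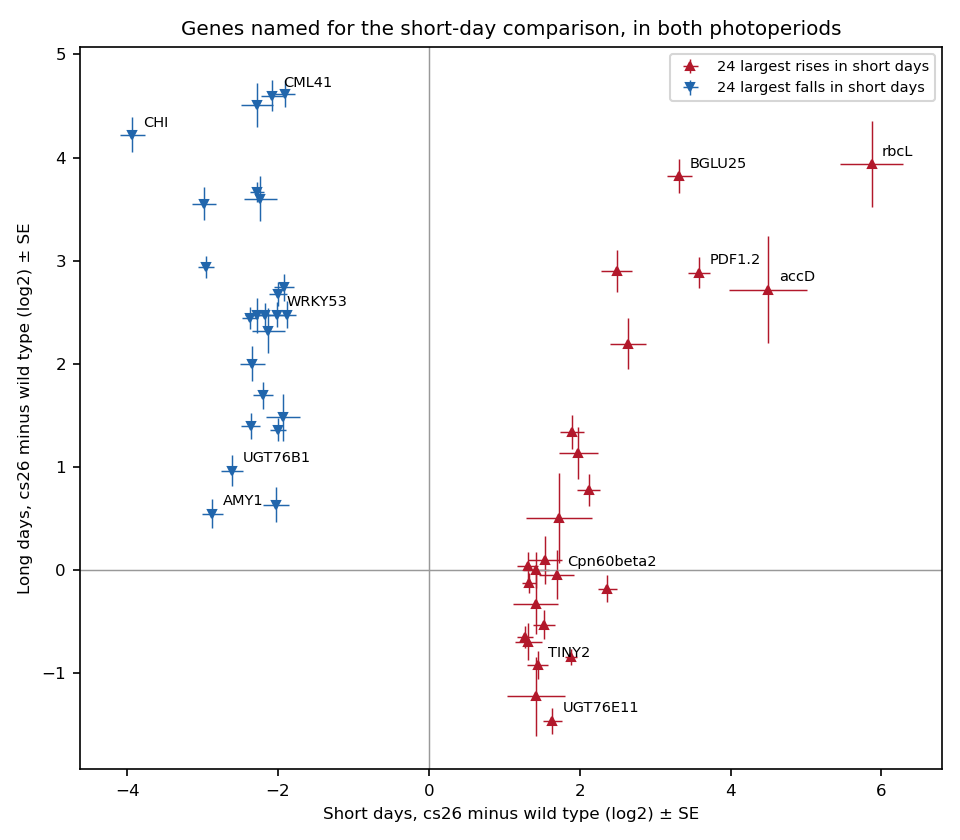
Difference between cs26 and wild type in short days (x axis) and long days (y axis), log2 ± SE, for the 24 largest short-day rises (red) and falls (blue). All falls lie in the upper left, below 0 in short days and above 0 in long days, while the rises spread from UGT76E11 (-1.46 in long days) to rbcL (3.94).

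Of 8 listed calmodulin-like genes, 4 fell in short days and 5 rose in long days, with a different effect for 6. Of 11 thylakoid assembly genes, 7 rose in short days while 1 rose and 1 fell in long days, and the effect differed for 4. Of 11 autophagy genes the effect differed for 3, and of 9 antioxidant enzymes for 7. Among all genes it differed for 24.4%, and the autophagy count lies close to that share. COR15A (0.80 and -5.40) and TBL26 (0.71 and -3.58) rose in short days and fell in long days. The psbE operon genes fell in both, by more in long days, and the effect differed for all 4.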

How the data were processed

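Total RNA of leaves was labelled as biotinylated cRNA from 4 µg and hybridised to Affymetrix ATH1 arrays, per the labels' protocols. The authors deposited log2 values with 2 decimals, from 3.12 to 14.27, made with RMA and the affy package, per the submitters' processing notes. No versions are recorded there. RMA matches the array distributions, which removes any shift common to most transcripts. The number of arrays limits the precision.

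All 12 arrays entered a limma 3.58.1 model (R 4.3.3, lmFit and eBayes, 4 group means, 8 residual and 4.32 prior degrees of freedom), which was tested on simulated data. Adjusted p is Benjamini-Hochberg over 22746 probe sets, with 64 controls left out, and calls are at 0.05. Of these, 13513 name 1 gene (13436 in the gene table used for names), 503 several and 8730 none. Named genes are the 24 largest rises and falls among called, non-overlapping probe sets, and up to 6 called members of each list, or any member of lists of up to 12. Lists were matched by symbol, synonym, locus or description, so family members that these do not name can be missing. They take each gene's brightest probe set. From them, 43 entries of another gene with the same name or outside the list's function were removed, some after values were seen. Members and lists were chosen with earlier results of these data known. Over all probe sets, same-numbered arrays of the genotypes do not pair (correlations of deviations 0.162, -0.31 and -0.276). The largest correlation was 0.421, of wild-type replicate 3 with cs26 replicate 2. Plastid genes can differ from this, since replicate 2 was the highest array of both genotypes in many of them.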

Additional observations from a re-analysis of the deposited data

Results flagged for a closer look

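The genes below drew attention because the cs26 effect in short days differed from that in long days by a test of the difference itself (limma, adjusted p under 0.05, beside 27.6% of all probe sets). Values in brackets are the short-day minus the long-day effect on the log2 scale. Many of the genes were chosen for a large short-day difference, which is part of that value, so how many are flagged is a description. No explanation was tested.

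Among the largest rises, the plastid genes were rbcL (1.93) and rps16 (1.74). Nuclear rises with a symbol were PDF1.2 (0.70), Cpn60beta2 (1.74), UGT76E11 (3.09), TINY2 (2.36), ATSPS4F (2.65), UGT84A3 (1.41) and Cpn60beta4 (2.01). Those known by locus were AT1G53540 (2.55), AT5G51440 (1.34), AT5G12110 (2.72), AT3G09440 (1.44), AT5G59130 (2.06), AT5G66740 (1.46), AT3G16175 (1.28) and AT1G69523 (1.92).

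Among the largest falls, genes with a symbol were CHI (-8.15), SAL2 (-6.53), AMY1 (-3.42), UGT76B1 (-3.58), CML41 (-6.68) and WRKY53 (-4.50). By locus, the values were AT2G44240 (-5.89), AT3G13610 (-4.82), AT1G05575 (-3.76), AT5G52390 (-4.34), AT5G39670 (-5.95), AT3G01830 (-6.79), AT1G72060 (-4.74), AT1G57630 (-5.83) and AT3G15450 (-3.90). Further loci were AT5G05300 (-4.65), AT2G25735 (-4.45), AT3G49340 (-2.66), AT5G38900 (-4.68), AT5G55450 (-3.36), AT1G15010 (-3.42), AT5G18470 (-4.67), AT2G18690 (-6.53) and AT4G39670 (-4.36).

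In the chloroplast, the psbE operon gave psbJ (1.11), psbL (0.89), psbF (0.65) and psbE (0.61). Nuclear genes for plastid RNA processing, assembly and electron or carbon flow were CRR21 (1.62), LPA66 (0.76), SPPA (0.70), LIL3:1 (0.61), HCF101 (1.05), CYTC6A (0.61) and PRK (0.87). Redox genes were GR (0.79), GLDH (0.81), TAPX (0.75), GR1 (0.70), GRX480 (-4.12) and GRXC1 (-0.80), and chaperones Hop2 (1.58), Hop3 (0.51) and Hsp70-2 (-3.35).

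Defence and signalling genes were WRKY22 (-0.86), WRKY47 (-2.67), WRKY6 (-1.68), CML37 (-2.49), CML38 (-2.09), CML23 (-1.75), BSMT1 (-0.67), OSM34 (-2.40), THE1 (-0.86) and BIK1 (-1.78). The jasmonate list gave JAL23 (-0.94), JAL34 (-2.06) and JMT (1.34), the endoplasmic reticulum ATERDJ3B (-2.47) and BZIP60 (-1.38) and autophagy ATG8E (-2.58) and APG8A (-1.40).

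Metabolic genes were UGT73D1 (-2.30), UGT74D1 (1.03), UGT78D1 (1.80), UGT78D2 (0.92), CHIL (1.68), CCOAMT (-2.77), CYP71B23 (-3.16), CYP71B24 (-0.84), CYP71B35 (1.37) and CYP71B5 (1.06). For starch and sugars the values were SBE2.2 (1.88), DPE1 (1.33), cwINV6 (-4.23), TMT2 (2.08) and SWEET13 (3.91). Cold and iron genes were COR15A (6.20), COR15B (5.87) and PYE (0.91), and wall genes EXLA1 (-1.32), ATPMEPCRB (-2.84), TBL26 (4.30), XTH16 (-1.80) and AT2G31110 (-0.69).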

How the results depend on the processing

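Of 3806 probe sets called, 1337 (579 higher, 758 lower) were called with a replicate block and only the short-day arrays, 1987 (960 and 1027) at an adjusted p under 0.01 and 473 with a 2-fold limit. A replicate block on 12 arrays gave 3297, but over all probe sets the numbers do not pair the arrays. Leaving out 1 array at a time gave 2633 to 3756. Only the short-day arrays gave 2731, quantile normalisation 3736 (1782 higher, 1954 lower), median centring 3705, dim probe sets left out 3370, a trended robust prior 3802 and array weights 4445. The difference of effects was called for 5181 to 6305 probe sets against 6268. Of 137 named genes, rps4, rpl36 and rpoA not among them, 86 were called under every alternative that gave a value, and of 1901 such values 192 were past the threshold no longer and 0 reversed. The replicate block with only the short-day arrays ended 47 calls and only the short-day arrays 24. Leaving out wild-type replicate 1, 2 or 3 ended 24, 23 and 9, and leaving out cs26 replicate 1, 2 or 3 ended 10, 19 and 17. Each of these settings uses fewer samples. The other settings ended 1 to 9 each. Dim probe sets limit what can be seen, since 1.32% of the 5699 dimmest were called.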
